A study of Drosophila melanogaster with 12 samples.

Results

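The BEL/Pao retrotransposons described here are diver, diver2, roo, 3S18, Max-element and aurora-element. They were chosen by name from the transposon rows of a deposited Egg chromatin immunoprecipitation (ChIP-seq) table, and all 6 were found among its 175 transposon rows, in a table of 35502 rows in all. The study used cultured Drosophila melanogaster ovarian somatic cells, a line of somatic cells of the ovary without germ cells. Cells were fixed 4 days after knockdown of Egg (siEgg), of Piwi (siPiwi), of Windei (siWde) or of EGFP (siEGFP), a jellyfish protein gene that serves as the control target. From each knockdown came DNA precipitated with an anti-Egg antibody and input DNA that was not precipitated, 12 samples in 8 groups. The siEgg and siEGFP groups have 2 samples each and the siPiwi and siWde groups 1 each. The table held 4 value columns, ChIP and input of siEgg and ChIP and input of siEGFP, with no replicate number. A column is treated here as a single library, whether it stands for 1 sample or for both samples of its group. The siPiwi and siWde samples were not analysed here.

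Egg (Eggless) is the SETDB1 homologue of flies, which places methyl groups on lysine 9 of histone H3 and so marks chromatin for silencing. In ovarian somatic cells the Argonaute protein Piwi, guided by piRNAs, recognises nascent transposon transcripts, and Egg with its cofactor Windei acts downstream of it. BEL/Pao elements are a superfamily of retrotransposons with long terminal repeats, separate from the Gypsy and Copia superfamilies. They encode Gag and Pol proteins and move through reverse transcription of their RNA. roo is known as one of the most abundant retrotransposons in the fly genome, and aurora-element as a mostly heterochromatic relative of the Drosophila simulans element ninja. The placement of the 6 elements in this superfamily is background knowledge, since the files hold no element sequence, and none is shown.

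The libraries held 1698148 reads for the siEgg ChIP, 2293964 for the siEgg input, 1796866 for the siEGFP ChIP and 2183061 for the siEGFP input. The deposited unit was RPKM, the reads of a row divided by its length and by the reads of its library, and the depths and read counts were worked back from it. Because each group has 1 column, there is no replicate error and no test between samples. Brackets give 95% counting intervals, which cover counting error only and not differences between cultures or chromatin preparations. An element was called enriched, lower or higher when its log2 value was at least 1 in size (2-fold) and its interval excluded 0. These are DNA reads, so neither the identity of the cells nor the loss of Egg could be checked from them.

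Among the 6 elements diver alone carried a large Egg signal, and it lost most of that signal in siEgg. diver (FBgn0043969, row length 6112 bases) had 8538 ChIP and 2260 input reads in siEgg, against 40005 ChIP and 2176 input reads in siEGFP. Per length and depth these were 823 and 161 RPKM in siEgg, against 3643 and 163 RPKM in siEGFP. The 2 inputs were alike, and the ChIP was the library that differed. ChIP over input was 5.09-fold in siEgg (4.87 to 5.35) and 22.2-fold in siEGFP (21.4 to 23.3). On the log2 scale these were 2.35 (2.28 to 2.42) and 4.48 (4.42 to 4.54), a change of -2.13 (-2.22 to -2.04), or 4.37-fold lower. The siEgg ChIP alone was 0.226 times the siEGFP ChIP (0.221 to 0.231), about the same ratio as with the inputs. In both knockdowns diver had the highest enrichment of the 116 D. melanogaster transposon rows tested, and its change was the most negative of them. The next row was HeT-A, a telomeric retrotransposon, in siEGFP, 3.28 lower on the log2 scale, and Bari2, a DNA transposon, in siEgg, 1.45 lower on 30 reads or fewer in each library. These ranks are among transposons. Over all 12683 features tested the extremes lay beyond diver, at 2.80 in siEgg, 4.64 in siEGFP and -3.91 for the change. The other transposons called enriched in siEGFP were HeT-A at 1.20, transib4 at 1.13, transib1 at 1.11 and the Gypsy-superfamily element FBgn0000004, whose name is a number, at 1.09. By the 2-fold rule the other transposons called lower in siEgg were transib1, with a change of -1.07, and the retrotransposon G6, with a change of -1.002, which is named because of that count and after its values were seen.

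**Figure D1:**
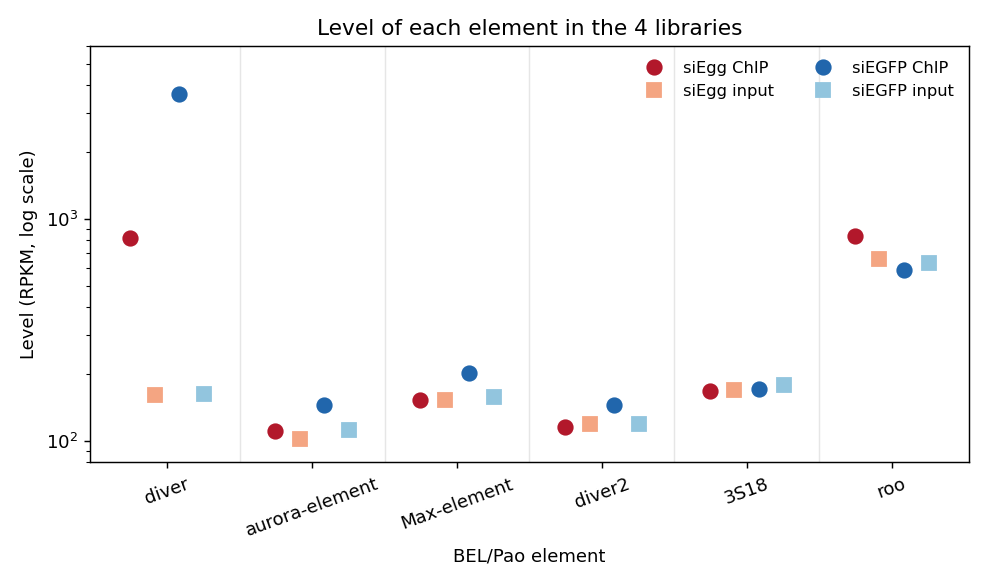
Level of each BEL/Pao element in RPKM (log scale) in the siEgg ChIP, siEgg input, siEGFP ChIP and siEGFP input. Each point is 1 library without replicate error. diver stands at 823 and 3643 RPKM in the siEgg and siEGFP ChIPs over inputs of 161 and 163, while the 4 points of each other element lie within 1.43-fold of each other.

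diver was thus the 1 of 6 elements called enriched in siEgg, where 1.24% of all 12683 features tested and 0.82% of 122 transposon rows were called. It was also the 1 of 6 called enriched in siEGFP, where 5.55% of all features and 4.1% of transposon rows were. It was the 1 of 6 called lower in siEgg by the 2-fold rule, by which 3.23% of features and 2.46% of transposon rows were lower. None of the 6 was called higher in siEgg, against 4.88% of all features and 0.82% of transposon rows. The calls over all features depended on the scaling and on the filter. In siEgg 410 features were called lower and 619 higher, but 755 and 234 after centring on the median gene. Where both inputs had 20 reads or more, which also changes the set tested, 181 were lower and 422 higher. Those called enriched in siEGFP were then 204 in place of 704. None of the 6 was called below input either, a call that 1.09% of all features had in siEgg and 7.4% in siEGFP, and 0% of transposon rows in both. diver2, which shares its name with diver, was far from it, with a log2 difference in siEGFP of 4.19 (4.06 to 4.32) between diver and diver2. That difference was 2.39 in siEgg (2.25 to 2.53).

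Max-element, aurora-element and diver2 formed a group with a weak excess over input in siEGFP and none beyond counting error in siEgg. Max-element (FBgn0063919, 8556 bases) had 2211 ChIP and 3013 input reads in siEgg, against 3101 and 2948 in siEGFP. Its log2 enrichment was -0.01 in siEgg (-0.09 to 0.07) and 0.35 in siEGFP (0.28 to 0.43), a change of -0.37 (-0.47 to -0.26). These are differences well under 2-fold, visible because of the many reads. aurora-element (FBgn0010103, 4263 bases) had 802 ChIP and 996 input reads in siEgg, against 1109 and 1040 in siEGFP. Its log2 enrichment was 0.12 in siEgg (-0.01 to 0.26) and 0.37 in siEGFP (0.25 to 0.50), a change of -0.25 (-0.43 to -0.07). Of the 6 elements it had the fewest reads. diver2 (FBgn0063439, 4917 bases) had 962 ChIP and 1339 input reads in siEgg, against 1283 and 1277 in siEGFP. Its log2 enrichment was -0.04 in siEgg (-0.16 to 0.08) and 0.29 in siEGFP (0.17 to 0.40), a change of -0.33 (-0.49 to -0.17). Between these 3 elements no pair differed beyond counting error, in either knockdown or in the change. With quantile scaling none of the 3 lay above input in siEGFP beyond counting error, with Max-element at 0.06 (-0.02 to 0.13), aurora-element at -0.0025 and diver2 at -0.046, and the change of aurora-element was 0.0099. The median other transposon itself had 0.18 in siEgg and 0.18 in siEGFP. Centred on it, the siEGFP values were 0.17 (0.10 to 0.24) for Max-element, 0.19 (0.07 to 0.31) for aurora-element and 0.10 (-0.01 to 0.22) for diver2. In siEgg, so centred, Max-element had -0.19 (-0.27 to -0.11), diver2 -0.22 (-0.34 to -0.10) and aurora-element -0.056 (-0.19 to 0.08). Centring on the median gene instead raised the siEGFP values to 0.65 for Max-element, 0.67 for aurora-element and 0.58 for diver2. In siEgg it put aurora-element above 0 beyond counting error, at 0.16 (0.03 to 0.30), but not Max-element or diver2.

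3S18, a BEL element, showed no Egg signal above input in either knockdown. 3S18 (FBgn0005384, 6126 bases) had 1751 ChIP and 2389 input reads in siEgg, against 1894 and 2397 in siEGFP. The log2 enrichment was -0.01 in siEgg (-0.10 to 0.08) and -0.06 in siEGFP (-0.15 to 0.03). The interval of the change, 0.04 (-0.08 to 0.17), leaves no room for a 2-fold change in either direction as far as counting error goes. After centring on the median gene its siEGFP value was 0.23 (0.15 to 0.32) and its change -0.21.

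roo, the element with the most DNA of the 6, moved the other way from diver. roo (FBgn0000155, 9092 bases) had 12947 ChIP and 13715 input reads in siEgg, against 9579 and 12494 in siEGFP. Per length and depth these were 839 and 658 RPKM in siEgg, against 586 and 629 RPKM in siEGFP. The siEgg ChIP was the highest of the 4 values and the siEGFP ChIP the lowest, with both inputs between them. ChIP over input was 1.27-fold in siEgg (1.24 to 1.31) and 0.932-fold in siEGFP (0.907 to 0.957). The log2 enrichment was 0.35 in siEgg and -0.10 in siEGFP, a change of 0.45 (0.40 to 0.50) that stayed under the 2-fold line. The median of the gene changes was 0.22. Centring used instead the median gene enrichment of each knockdown, -0.04 in siEgg and -0.29 in siEGFP, and the roo change was then 0.20. Centring also brought the siEGFP value of roo above input, to 0.19, while quantile scaling put its siEgg value at 0.00. The median change of the 116 tested transposon rows other than these elements was -0.01. In the 116 tested D. melanogaster rows, a different set that includes the 6 elements, roo ranked 11 by change. The 10 rows ahead of it all had fewer reads.

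**Figure D2:**
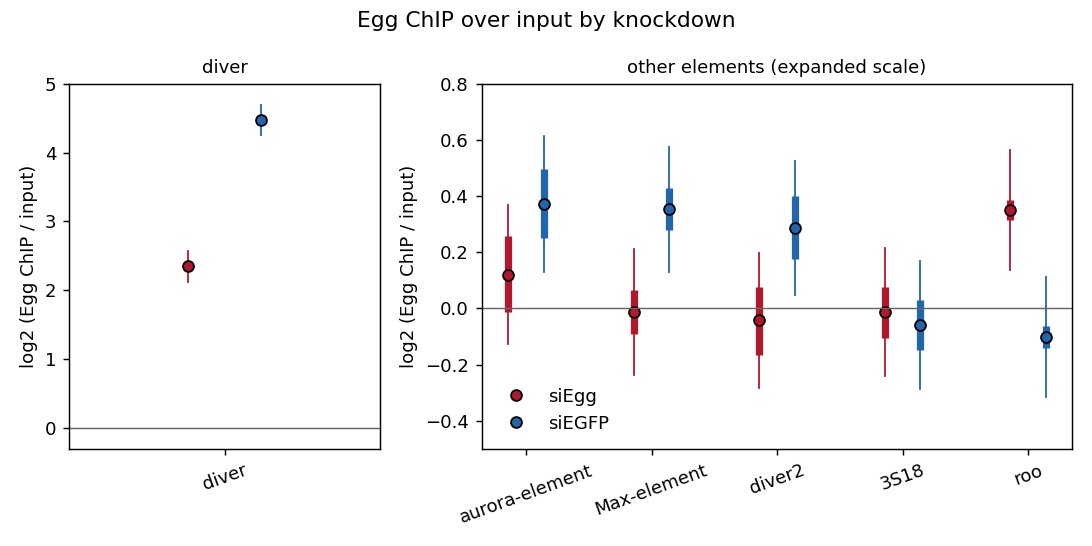
log2 of Egg ChIP over input for diver (left) and, on an expanded scale, for the other 5 elements (right), siEgg in red and siEGFP in blue. Thick bars are 95% counting intervals and thin bars add the spread between the 2 inputs, which itself holds counting error. diver lies at 2.35 in siEgg and 4.48 in siEGFP. Of the others only roo lies higher in siEgg than in siEGFP with thick bars that do not overlap.

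The order of enrichment among the 6 therefore differed between knockdowns. In siEgg it ran diver, roo, aurora-element, Max-element, 3S18 and diver2. diver exceeded roo by 1.996 (1.92 to 2.07) and roo exceeded aurora-element by 0.23 (0.09 to 0.37). Among the last 4 no pair differed beyond counting error, for example aurora-element from Max-element by 0.13 (-0.02 to 0.29). In siEGFP the order was diver, aurora-element, Max-element, diver2, 3S18 and roo. There diver exceeded aurora-element by 4.10 (3.97 to 4.24) and diver2 exceeded 3S18 by 0.34 (0.20 to 0.49). The pairs aurora-element and Max-element, Max-element and diver2, and 3S18 and roo were not separated. Of the 15 pairs, 9 differed beyond counting error in siEgg, 11 in siEGFP and 12 in the change. These pairwise intervals were not adjusted for the number of pairs.

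Counting intervals are narrow for rows with this many reads, so the 2 inputs were used as a measure of spread between libraries. Over 98 other transposons whose inputs both had 100 reads or more, the log2 ratio of the siEgg to the siEGFP input had a standard deviation of 0.107, where counting alone gives 0.0924. The whole 0.107 was added to the counting error of each ratio. Since 0.107 already holds counting error, that error entered again, and the widened intervals are too wide for counting and input spread. They hold no spread between ChIP libraries, and where that is large they may be too narrow. With that spread added, the change of diver was -2.13 (-2.44 to -1.82), that of roo 0.45 (0.15 to 0.75) and that of Max-element -0.37 (-0.68 to -0.05). The intervals of diver2 (-0.67 to 0.01), aurora-element (-0.60 to 0.10) and 3S18 (-0.28 to 0.37) then included 0. Whether diver2 and aurora-element would include 0 with only the excess over counting added was not tested. The siEGFP enrichment of roo, -0.10 (-0.32 to 0.11), also included 0, while its siEgg enrichment, 0.35 (0.14 to 0.56), did not. The pairs that differed in the change numbered 8 with this spread added, counting error again included, in place of 12. The spread between ChIP libraries of like cells was not measured. The siEgg to siEGFP ratio of the ChIPs had a standard deviation of 0.375 over the same 98 transposons, and that figure includes any effect of the knockdown.

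By counting intervals alone, without that added spread and whatever their size, 4 of the 6 elements lay above 0 in siEGFP (diver, Max-element, aurora-element and diver2) and roo lay below. Among 122 transposon rows 48.4% lay above and 12.3% below, and among all features 8.89% and 18.6%. In siEgg 2 of the 6 lay above 0, diver and roo, and none below, beside 45.1% and 4.1% of transposon rows and 3.26% and 3.28% of all features. For the change, 4 of the 6 lay below 0 and roo lay above. The shares were 24.6% and 25.4% of transposon rows and 4.2% and 7.82% of all features. The median change of the 6 was -0.29, beside -0.02 over the transposon rows and 0.22 over all features. With 6 members, and many more reads in a transposon row than in a gene, these shares describe and do not set the elements apart.

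**Figure D3:**
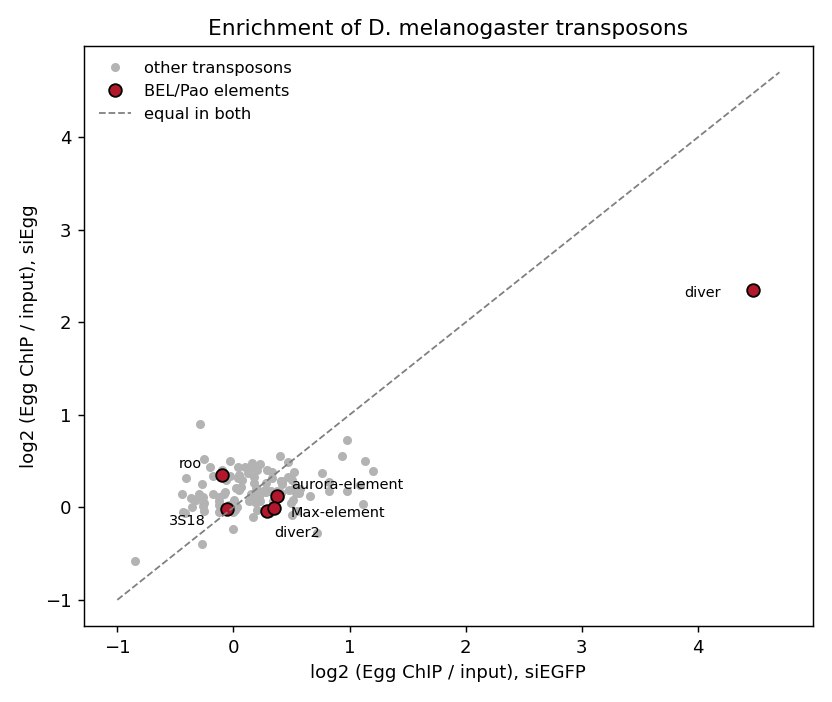
log2 of Egg ChIP over input in siEgg (vertical) against siEGFP (horizontal) for 116 D. melanogaster transposon rows, BEL/Pao elements in red. diver lies alone at 4.48 in siEGFP and 2.35 in siEgg, below the dashed line of equal values. The other 5 elements lie within the cloud of transposons.

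**Figure D4:**
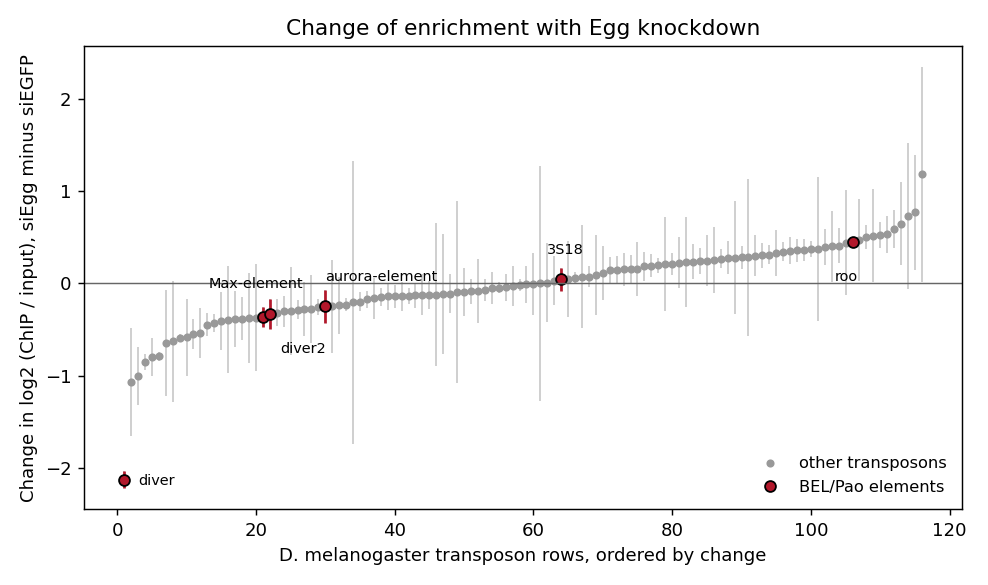
Change of log2 enrichment, siEgg minus siEGFP, for the same 116 rows in rising order, with 95% counting intervals. diver is the lowest at -2.13, Max-element, diver2 and aurora-element lie between -0.37 and -0.25, 3S18 lies at 0.04 and roo at 0.45.

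The reads of diver made up a large part of all transposon reads in the siEGFP ChIP. They were 4.31% of transposon reads in the siEgg ChIP (4.22% to 4.40%) and 0.966% in the siEgg input. In siEGFP they were 15.5% in the ChIP (15.4% to 15.6%) and 0.990% in the input. roo took 6.53% of transposon reads in the siEgg ChIP and 5.86% in its input, against 3.71% in the siEGFP ChIP and 5.68% in its input. The other 4 elements each took between 0.405% and 1.34% in every library. Of all reads, transposon rows took 11.7% of the siEgg ChIP and 10.2% of its input, a gain of 1.47 percentage points, against 14.4% and 10.1% in siEGFP, a gain of 4.30 points. diver accounted for 0.404 points of the gain in siEgg (27.5%) and for 2.13 points in siEGFP (49.5%). Of the gain of diver in siEGFP, 19.0% was left in siEgg. roo accounted for 0.165 points in siEgg (11.2%), and -0.0392 points in siEGFP, where its share was lower in the ChIP than in the input.

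**Figure D5:**
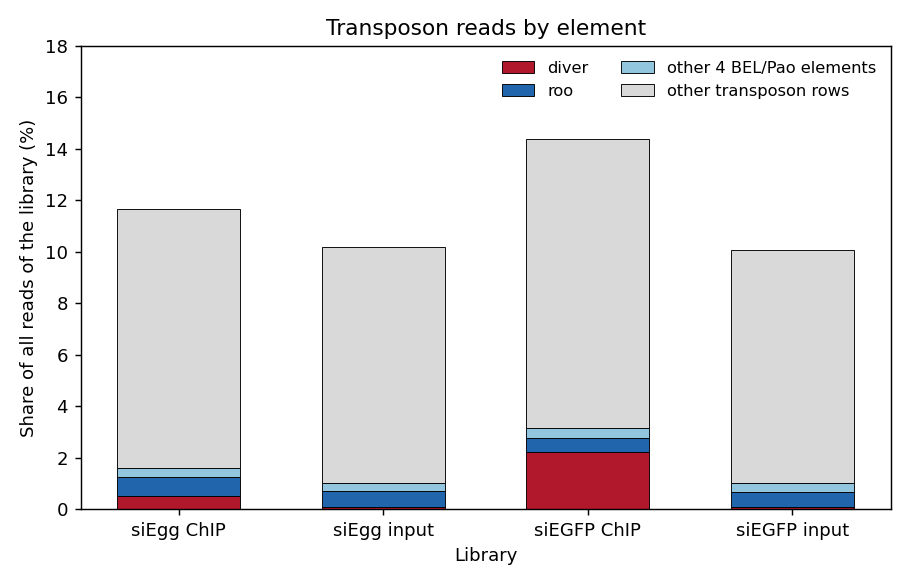
Share of all reads of each library (%) that fell in transposon rows, stacked as diver, roo, the other 4 BEL/Pao elements and the other transposon rows. diver takes 0.503% of the siEgg ChIP and 2.23% of the siEGFP ChIP, and 0.0985% and 0.0997% of the inputs.

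Summed as a superfamily, the 6 elements therefore reflected diver and roo, which moved in opposite directions. Their summed reads gave a log2 enrichment of 0.63 in siEgg (0.61 to 0.66) and 1.63 in siEGFP (1.61 to 1.65). Without diver the sum gave 0.23 in siEgg (0.21 to 0.26) and 0.03 in siEGFP (0.003 to 0.06), a change of 0.20 (0.16 to 0.24). In that remainder roo supplied 12947 of 18673 ChIP reads in siEgg and 9579 of 16966 in siEGFP. Over all transposon rows the summed log2 enrichment was 0.19 in siEgg and 0.51 in siEGFP, and without diver 0.14 and 0.28.

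The inputs gave the amount of DNA of each element in the cells. Relative to the median gene with a single row in the table, diver had 25.6 times the input level in siEgg and 24.1 times in siEGFP. roo had 105 times in siEgg and 92.8 times in siEGFP, and was 7th by input among the 116 rows. 3S18 had 27.1 and 26.4 times, Max-element 24.4 and 23.3, diver2 18.9 and 17.5, and aurora-element 16.2 and 16.5. These are levels per length of DNA that maps to the element, whole copies and fragments alike, and are not counts of copies. diver thus did not stand out by its DNA, ranking 35 of 116, yet ranked first in the siEGFP ChIP. Between the inputs, the siEgg to siEGFP ratio was 0.988 for diver (0.931 to 1.05) and 1.04 for roo (1.02 to 1.07). It lay between 0.911 and 0.998 for the other 4.

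A pair of further BEL/Pao rows not among the 6 was found by name. rooA (FBgn0063394), a relative of roo, had 945 ChIP and 1094 input reads in siEgg, against 893 and 1034 in siEGFP. Its log2 enrichment was 0.22 in siEgg and 0.07 in siEGFP, a change of 0.15 (-0.03 to 0.33). Dsim\ninja (FBgn0015168), the row of the D. simulans element, had 574 ChIP and 749 input reads in siEgg, against 996 and 794 in siEGFP. Its log2 enrichment was 0.05 in siEgg and 0.60 in siEGFP, a change of -0.55 (-0.76 to -0.35). How reads that match several related elements were assigned is not given in the sources used here, so related rows such as roo and rooA, or aurora-element and Dsim\ninja, may share reads.

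Other superfamilies of retrotransposons with long terminal repeats gave few calls by the same rule. Of 46 Gypsy-superfamily rows none was called enriched in siEgg and FBgn0000004 alone was in siEGFP, with medians of 0.18 in siEgg and 0.17 in siEGFP. Their highest siEGFP value, 1.09, was 3.38 below that of diver. The 4 Copia-superfamily rows had no call, with medians of 0.26 in siEgg and 0.11 in siEGFP. The medians of the 6 BEL/Pao elements were 0.05 in siEgg and 0.32 in siEGFP.

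By distance over the pair of log2 enrichments, no transposon resembled diver: the nearest was HeT-A at 3.81, with 0.40 in siEgg and 1.20 in siEGFP, followed by transib4 at 3.82 and S2 at 3.86. roo had close neighbours. The retrotransposon invader2 lay at a distance of 0.06, with 0.41 in siEgg and -0.10 in siEGFP, followed by Circe and gypsy4 at 0.07 each. These distances rest on 2 values per element.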

How the data were processed

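The deposited table holds RPKM values, reads scaled by the authors to row length and library size, in 4 columns of Egg ChIP-seq and input libraries. Per the submitters' processing notes, reads were mapped with Bowtie2 2.2.4 and dm6. The counter, the treatment of reads with several matches and any pooling of samples are not given in the sources used here. Whole reads were recovered by scaling each column to the length of 5S rRNA genes (135 bases), with the lowest 5S value above 0 taken as 1 read. Each of the 34762 rows that was not 0 throughout then gave whole reads, to within 0.0001. Row length was searched for and the first that gave whole reads was kept, so this is no separate check of the depths. Depths and lengths rest on that anchor. Reads of transcript rows of 1 gene were summed (16768 genes, of which 12561 were tested, with 122 transposon rows). Tested features had at least 10 reads and more than 0.7 RPKM in at least 2 libraries. All 6 elements passed. To both RPKM values of a ratio 0.7 was added, the median gene input divided by 10, before the log2 of ChIP over input was taken. Intervals of ratios were exact (Clopper-Pearson), and those of changes and pairs used a normal approximation with 0.5 added to counts. No p-values were computed. The planned test assumed replicated columns only as an option, and 1 column per group left counting intervals. Steps were tested on simulated data (Python 3.11.15, scipy 1.17.1). The elements, lists and tests were chosen with earlier results of these data known. Named elements were the 6, further BEL/Pao rows, the 3 transposons nearest to diver and to roo, and rows called enriched; Bari2, G6 and the Gypsy and Copia lists give rank and context.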

Additional observations from a re-analysis of the deposited data

How the results depend on the processing

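No paired analysis was possible because each siEgg and siEGFP group had only 1 value column, and for the same reason no replicate could be left out. Over 12 settings, 1 of them (library totals without diver) chosen after seeing the data, diver was called enriched in both knockdowns wherever enrichment was computed, and called lower in siEgg in each. Its log2 enrichment ranged from 2.03 to 2.39 in siEgg and from 3.52 to 4.77 in siEGFP, and its change from -2.38 to -1.497. No other element was called under any of them, and the counts of called elements stayed at 1. The change of roo was positive in all 12 (0.20 to 0.58), and those of Max-element (-0.62 to -0.32) and diver2 (-0.58 to -0.18) were negative in all 12. Not all of these settings are separate checks of sign. Those of fold threshold, filter and widened interval cannot alter a log2 value, and pooling or leaving out the inputs gives the same change. Small values changed sign. Centred on the median gene, 3S18 had 0.027 in siEgg, 0.23 in siEGFP and a change of -0.21, roo had 0.19 in siEGFP and Max-element 0.028 in siEgg. With quantile scaling, which for rows this high rests on rank, aurora-element had -0.0025 in siEGFP and a change of 0.0099, diver2 had -0.046 in siEGFP and roo 0.00 in siEgg. Centred on the median other transposon, aurora-element had -0.056 in siEgg. With inputs pooled or left out, 3S18 changed by -0.032. Over all features, the largest shifts of the counts were in those called higher in siEgg (619, but 56 with the pseudocount 5 times larger) and enriched in siEgg (157, but 9 where both inputs had 20 reads or more). The median siEGFP input level of the 6 was 23.7 times the median gene with a single row. It was 22.1 times with all tested genes as the reference, and 19.5 times with genes of at least 40 reads in each input.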
